A study of Oryza sativa with 24 samples.

Results

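The rice PLETHORA genes OsPLT1 to OsPLT10 encode transcription factors of the AP2 family, and all 10 are among the 38866 genes of the deposited table. They were found by these names, in the table or beside the identifiers given in the study. PLETHORA proteins, also called AINTEGUMENTA-LIKE proteins, bind DNA through a pair of AP2 domains. In Arabidopsis they maintain the stem cells of the root tip, act in the early embryo and respond to auxin, and their relative BABY BOOM starts embryo-like growth from somatic cells when it is overexpressed. In rice OsPLT6, which is also known as OsBBM1, takes part in the start of embryo development after fertilization. The comparison asks how far these genes respond to callus-inducing medium (CIM) in the scutellum, the shield-shaped organ of the grass embryo, and how far that response depends on auxin perception.

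RNA was sequenced from cultured mature seeds of Oryza sativa cultivar Nipponbare, in 8 groups of 3 libraries. Wild-type and 35Spro:OsMIR393b seeds were kept for 2 d on hormone-free N6 medium, or for 2, 5 or 7 d on CIM, which is N6 medium with the synthetic auxin 2,4-D. 35Spro:OsMIR393b overexpresses a precursor of miR393, a microRNA directed against the auxin receptor transcripts OsTIR1 and OsAFB2, and the viral 35S promoter that drives it is active in most plant tissues, so its effect is not confined to the scutellum. A single name stands for the line, and no other overexpression line enters these libraries. The labels name mature embryos, whereas the methods name pooled scutella. In such bulk samples a change in a level cannot be told apart from a change in the number of cells that carry the transcript. N6 cultures exist for 2 d alone, and medium and time therefore change together in each comparison of 5 or 7 d on CIM with N6. Levels are counts scaled to a common library size (CPM) by TMM factors. A gene was called when the adjusted p of edgeR's quasi-likelihood test was below 0.05 and the log2 fold change exceeded 1 in size, and 29710 genes were tested, among them all 10 OsPLT genes. The study describes the 3 libraries of a group as biological replicates, each from pooled scutella, and the labels do not say whether they were cultured apart.

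Library totals ran from 50341636 to 70796624 counts. OsTIR1 was at 69.4 to 117 CPM over all 12 libraries of wild-type and at 19.1 to 29.5 CPM in the 12 of the line, and OsAFB2 at 96.2 to 156 CPM against 54.9 to 90.5 CPM, without overlap for either gene. Alpha-amylase genes, which the germinating scutellum expresses, were present in every library. The sum was taken over 13 genes whose description names alpha-amylase, among them GAMYB and GASR1, which are not named as amylases. It stood at 7436 to 9277 CPM on N6 and at 1687 to 2753 CPM at 7 d in wild-type, and at 19727 to 22984 CPM on N6 and 24858 to 32738 CPM at 7 d in the line. The 7 oleosin genes, which coat the oil bodies of embryo cells, summed at 7 d to 226 to 460.1 CPM in wild-type libraries, against 3.82 to 12.03 CPM in those of the line. The 4 root genes RCc2, RCc3, OsSHR1 and OsSCR1 summed in wild-type to 122 to 231 CPM on N6, 550.3 to 793 CPM at 2 d on CIM and 109 to 131 CPM at 7 d. RCc2 and RCc3 carried the sum at 2 d, whereas OsSHR1 was at 3.22 to 11.2 CPM at 2 d and 33.3 to 39.0 CPM at 7 d and OsSCR1 at 27.2 to 41.0 and 59.4 to 60.8 CPM. Of the shoot meristem genes OSH1, OSH15 and OsH43, OSH15 was at 15.1 to 18.7 CPM on N6 and 5.47 to 10.8 CPM at 7 d in wild-type, OSH1 was at 0 in every wild-type library at 7 d and OsH43 never exceeded 0.533 CPM. Endosperm storage genes were taken as the 50 whose description names glutelin or prolamin, a wording that can take in other genes. With 2 at 0 throughout, they summed to 1683 to 2217 CPM in wild-type on N6 and 733 to 936 CPM at 7 d, and to 1063 to 1338 CPM in the line at 7 d. The sums understate the change of single genes. Over the 38 tested, the median log2 fold change was -6.35 in wild-type at 7 d against N6. For the line against wild-type at 7 d it was 4.72. Photosynthesis genes were taken as the 18 whose description names chlorophyll a/b, a wording that also took in GHD7. With 4 at 0 throughout, they summed without hormone to 35.7 to 75.8 CPM in wild-type libraries, against 286 to 431 CPM in those of the line. The part of these marker differences in the OsPLT values was not tested.

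The genes lie on 7 of the rice chromosomes, and positions are given as gene spans of IRGSP-1.0 as deposited. OsPLT1 is Os04g0653600 on chromosome 4 from 33341978 to 33346528, and OsPLT4 lies on the same chromosome as Os04g0504500 from 25182303 to 25186566. Chromosome 3 holds OsPLT7 (Os03g0770700, 31922037 to 31925719), OsPLT9 (Os03g0232200, 6992879 to 6997181) and OsPLT10 (Os03g0176300, 4057561 to 4059890). OsPLT2 is Os06g0657500 on chromosome 6 from 27025485 to 27029339, and OsPLT3 is Os02g0614300 on chromosome 2 from 24264204 to 24266297. OsPLT5 is Os01g0899800 on chromosome 1 from 39141130 to 39145472. OsPLT6 is Os11g0295900 on chromosome 11 from 10863409 to 10868622, and OsPLT8 is Os07g0124700 on chromosome 7 from 1299598 to 1304299. OsPLT5, OsPLT9 and OsPLT10 are on the minus strand and the other 7 on the plus strand. The annotation calls OsPLT1 and OsPLT3 AINTEGUMENTA-like or ANT-like, OsPLT4 and OsPLT9 similar to BABY BOOM, OsPLT6 similar to ASGR-BBM-like1, a gene of the apomixis region of grasses, and OsPLT8 similar to PLETHORA1. It describes OsPLT2, OsPLT7 and OsPLT10 only as hypothetical conserved genes and OsPLT5 by its ERF domain. The study named OsPLT1, OsPLT2, OsPLT5, OsPLT6, OsPLT7 and OsPLT9 among its auxin-activated genes on these same libraries, so their direction is not independent evidence, and OsPLT3, OsPLT4, OsPLT8 and OsPLT10 were not named.

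In culture without hormone OsPLT10 had the highest level of the family. On N6 at 2 d OsPLT10 reached 158 ± 15.5 FPKM (SD, n = 3) in wild-type, and OsPLT1 followed at 13.8 ± 2.69 FPKM, on a scale divided by transcript length. In CPM, which are not divided by length, these 2 genes had 82.1 and 30.2 CPM. The size of the lead and the shares of summed FPKM below therefore depend on the lengths used for FPKM, which were not checked. OsPLT6, OsPLT9, OsPLT2 and OsPLT7 came next in that order, at means from 5.28 down to 0.377 FPKM, and none of these neighbours overlapped. OsPLT3 and OsPLT8 had no count in any of the 3 libraries, OsPLT5 had 4 counts in 1 of them and OsPLT4 had 12 counts in 1 of them. A level of 12 counts per library, or about 3 fragments, was taken as the floor below which a gene cannot be told from 0. The line on N6 had the same leading gene, OsPLT10 at 157 ± 32.1 FPKM, and the same 4 genes at or under the floor.

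In wild-type this order turned over on CIM. OsPLT10 made up 85.8 to 89.3% of the summed FPKM of the 10 genes on N6, 39.3 to 62.2% at 2 d, 14.9 to 19.7% at 5 d and 13.1 to 17.4% at 7 d on CIM. The sum of the other 9 genes went from 19.0 to 26.0 FPKM on N6 through 51.7 to 98.1 and 214 to 256 FPKM to 285 to 332 FPKM. OsPLT6 led at 5 d with 61.8 ± 3.02 FPKM. At 7 d OsPLT3, OsPLT6, OsPLT10, OsPLT1 and OsPLT2 had the 5 highest means, from 70.9 to 51.9 FPKM, and each overlapped the next. In CPM OsPLT10 had 23.5 at 7 d, against 119 for OsPLT2 and 107 for OsPLT6, so its place there depends on the scale. All 10 genes were above the floor in every wild-type library at 5 and 7 d, against 6 genes on N6.

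In 35Spro:OsMIR393b OsPLT10 kept the lead in all 12 libraries. It held 85.8 to 91.3% of the sum on N6, 78.8 to 87.0% at 2 d, 57.4 to 86.8% at 5 d and 70.7 to 95.6% at 7 d on CIM. The other 9 genes together gave 17.6 to 20.2 FPKM on N6 and 5.27 to 41.5 FPKM at 7 d, so that the 7 d libraries of the line lay on both sides of their N6 range, and the highest of them was below the lowest wild-type library at that time. These sums are descriptions without a test.

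**Figure D1:**
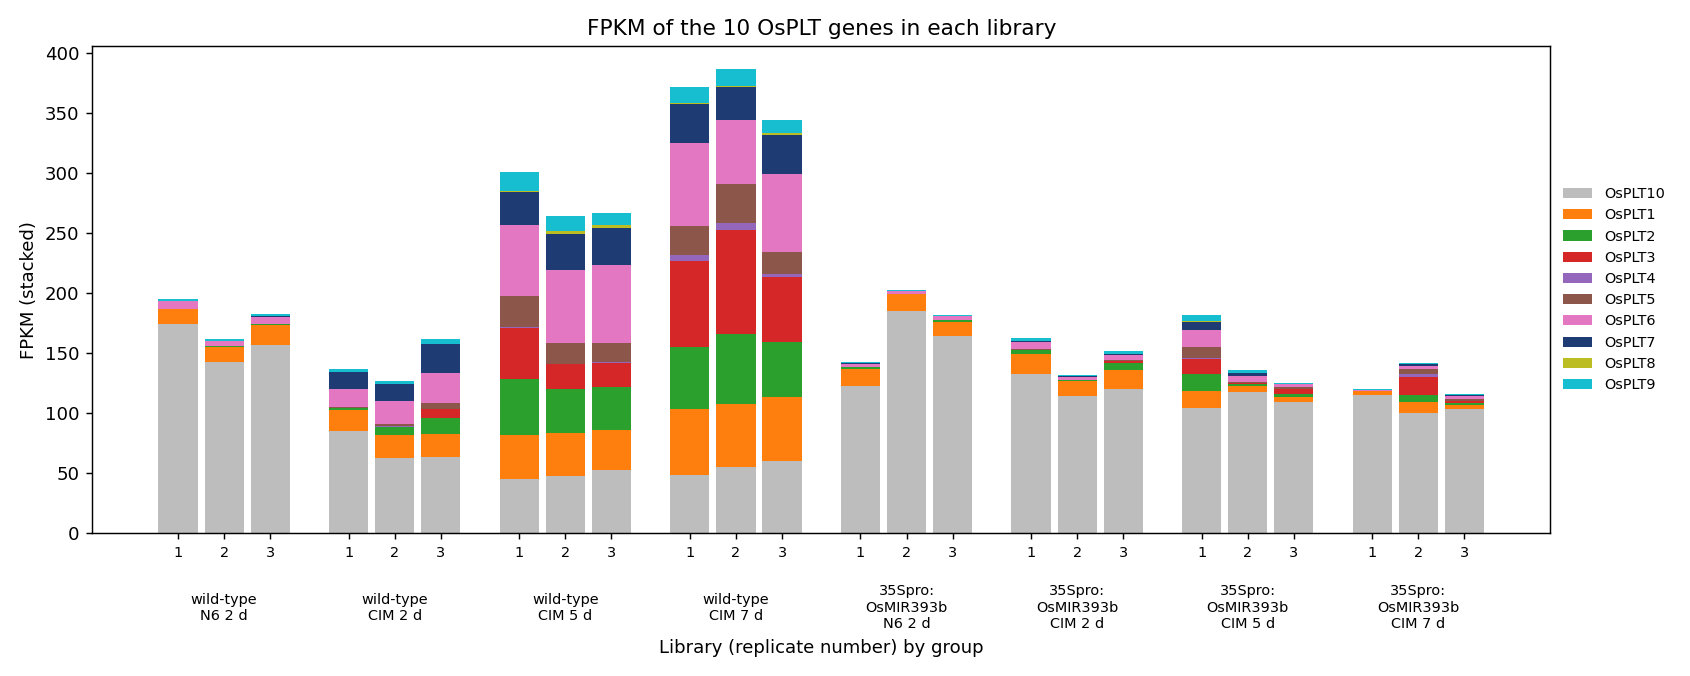
Stacked FPKM of the 10 OsPLT genes (vertical axis, linear) in each of the 24 libraries, which are grouped by genotype and culture and numbered by replicate. OsPLT10 (grey) holds 85.8 to 89.3% of the bar in wild-type on N6 and 13.1 to 17.4% at 7 d on CIM, while it holds 70.7 to 95.6% in 35Spro:OsMIR393b at 7 d. These shares depend on the lengths used for FPKM.

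OsPLT6 and OsPLT7 responded in wild-type within 2 d. On N6 OsPLT6 stood at 12.6, 8.18 and 11.9 CPM in the 3 wild-type libraries. The values were 32.9, 42.4 and 49.0 CPM at 2 d, 105, 108 and 113 CPM at 5 d and 117, 90.7 and 112 CPM at 7 d on CIM, each group clear of N6. The mean level at 2 d was 3.81-fold that on N6 (log2 fold change 1.93 ± 0.44 (SE), adjusted p = 0.00506) and at 5 d 9.97-fold (log2 fold change 3.32 ± 0.46 (SE), adjusted p = 9.02e-06), and 5 d exceeded 2 d as well (log2 fold change 1.39 ± 0.43 (SE), adjusted p = 0.0181). That last call was lost without wild-type CIM 2 d replicate 1 (adjusted p = 0.0758). OsPLT7 moved from 0.552, 0.821 and 1.38 CPM on N6 to 35.3, 34.4 and 57.5 CPM at 2 d, the steepest early rise among the genes with counts in every N6 library (46.3-fold, log2 fold change 5.53 ± 0.91 (SE), adjusted p = 0.000374). It then stood at 55.5, 63.3 and 61.5 CPM at 5 d and 64.2, 55.2 and 65.2 CPM at 7 d, and neither step between successive days was called.

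In the line both genes were lower than in wild-type on CIM. OsPLT6 had 5.53, 5.79 and 6.34 CPM on N6, 12.3, 5.17 and 7.74 CPM at 2 d, 29.9, 13.2 and 5.50 CPM at 5 d and 1.98, 4.55 and 5.92 CPM at 7 d on CIM. OsPLT7 had 0.911, 0.651 and 0.195, then 3.30, 0.867 and 2.17, then 16.4, 5.96 and 1.10 and finally 0.277, 4.88 and 1.09 CPM in the same order. At 2 d these were the 2 members called lower in the line than in wild-type, OsPLT7 by 20.1 times (log2 fold change -4.32 ± 0.85 (SE), adjusted p = 0.00227) and OsPLT6 by 4.94 times (log2 fold change -2.30 ± 0.45 (SE), adjusted p = 0.00201), and no other member was called at that time. At 7 d the ratios were 29.6 times for OsPLT7 (log2 fold change -4.87 ± 0.87 (SE), adjusted p = 7.66e-05) and 25.7 times for OsPLT6 (log2 fold change -4.68 ± 0.50 (SE), adjusted p = 1.57e-07). The value of OsPLT7 rests in part on CIM 7 d replicate 2 of the line, without which its log2 fold change was -6.49 (adjusted p = 1.58e-05). Within the line OsPLT6 was called higher at 5 d than on N6 (log2 fold change 1.46 ± 0.44 (SE), adjusted p = 0.0210), although the groups overlap. The call was lost without CIM 5 d replicate 1 (log2 fold change 0.67, adjusted p = 0.215) and without any 1 of the 3 N6 libraries of the line (adjusted p from 0.0520 to 0.0680). OsPLT7 was called higher at 5 d (log2 fold change 3.74 ± 0.88 (SE), adjusted p = 0.00453, but 2.59 and 0.0266 without CIM 5 d replicate 1) and was not called at 7 d (adjusted p = 0.0922).

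**Figure D2:**
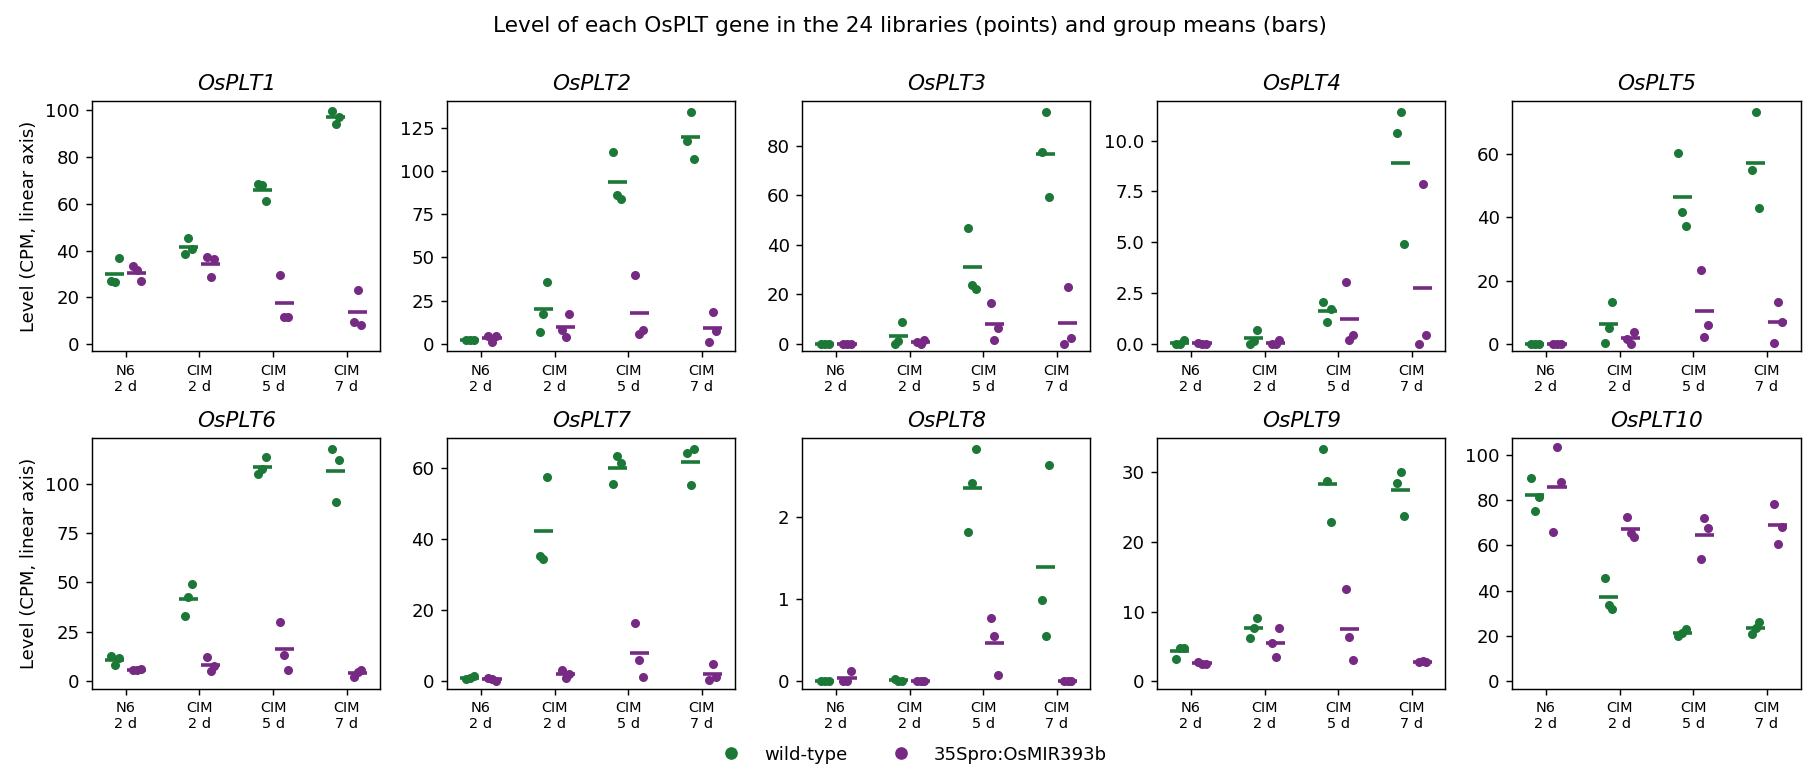
Level of each OsPLT gene in CPM (vertical axis, linear, a separate scale for each gene) against culture (horizontal axis) in wild-type (green) and 35Spro:OsMIR393b (purple), with 1 point per library and a bar at the mean of 3 libraries. OsPLT10 falls from 82.1 ± 7.17 CPM (SD) on N6 to 23.5 ± 2.65 CPM at 7 d in wild-type and lies at 68.9 ± 8.97 CPM at 7 d in the line, whereas OsPLT6 goes from 10.9 ± 2.38 to 107 ± 14.05 CPM in wild-type.

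OsPLT2 and OsPLT9 were also higher on CIM in wild-type. In wild-type OsPLT2 read 2.04, 2.40 and 2.29 CPM on N6, 6.90, 17.4 and 35.7 CPM at 2 d, 111, 86.2 and 83.8 CPM at 5 d and 117, 134 and 107 CPM at 7 d. The 2 d libraries are spread over a wide range, all above N6 and all below 5 d. OsPLT2 was called at each time, with means 8.93-fold (log2 fold change 3.16 ± 0.89 (SE), adjusted p = 0.0196), 41.8-fold (log2 fold change 5.39 ± 0.98 (SE), adjusted p = 0.000152) and 53.3-fold (log2 fold change 5.74 ± 0.99 (SE), adjusted p = 8.16e-05) that on N6. The 2 d call was lost without any of the 3 wild-type N6 libraries or without wild-type CIM 2 d replicate 3 (adjusted p from 0.0587 to 0.0985), and the call from 2 d to 5 d (log2 fold change 2.23 ± 0.84 (SE), adjusted p = 0.0488) was lost under 17 of 37 alternatives. Without CIM 2 d replicate 3 these log2 fold changes were 2.40 and 2.96. In wild-type OsPLT9 stood at 3.23, 4.79 and 4.81 CPM on N6. After 2 d on CIM it had 6.16, 7.66 and 9.12 CPM, where the test did not call it (adjusted p = 0.111). At 5 d it had 33.4, 28.8 and 22.9 CPM (6.63-fold that on N6, log2 fold change 2.73 ± 0.37 (SE), adjusted p = 6.96e-06) and at 7 d 28.4, 30.0 and 23.7 CPM.

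In the line OsPLT2 and OsPLT9 stayed below wild-type at 5 and 7 d. OsPLT2 had 4.38, 0.894 and 4.40 CPM on N6, 8.18, 4.11 and 17.2 CPM at 2 d, 40.0, 5.76 and 7.84 CPM at 5 d and 0.923, 18.7 and 7.49 CPM at 7 d, with 1 library high in each of the last 2 groups. Its call at 5 d against N6 (log2 fold change 2.47 ± 0.87 (SE), adjusted p = 0.0451) was lost under 23 of 37 alternatives, and without CIM 5 d replicate 1 the log2 fold change was 1.08 (adjusted p = 0.361). OsPLT9 went from 2.80, 2.44 and 2.50 CPM on N6 to 5.51, 3.42 and 7.69 CPM at 2 d and 13.3, 6.35 and 3.07 CPM at 5 d (log2 fold change 1.55 ± 0.36 (SE), adjusted p = 0.00439), and was back at 2.71, 2.97 and 2.81 CPM at 7 d. The fall from 5 d to 7 d was called (log2 fold change -1.42 ± 0.36 (SE), adjusted p = 0.0122), but not without CIM 5 d replicate 1 (log2 fold change -0.73, adjusted p = 0.1497), and the 5 d call against N6 then fell under the minimum fold (log2 fold change 0.87, adjusted p = 0.0381). Against wild-type at 7 d OsPLT9 was lower by 9.66 times (log2 fold change -3.27 ± 0.38 (SE), adjusted p = 5.31e-07) and OsPLT2 by 13.2 times (log2 fold change -3.72 ± 0.90 (SE), adjusted p = 0.00132). Without CIM 7 d replicate 2 of the line the log2 fold change of OsPLT2 was -4.83 (adjusted p = 0.000649). At 5 d the difference in OsPLT2 (log2 fold change -2.39 ± 0.84 (SE), adjusted p = 0.0239) was lost without wild-type CIM 5 d replicate 1 or without line replicate 2 or 3 (adjusted p = 0.0569, 0.0967 and 0.0958), and was -3.79 (adjusted p = 0.00234) without line replicate 1.

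OsPLT1, annotated as AINTEGUMENTA-like, had the second highest level on N6 and was called higher on CIM in wild-type and lower in the line. Wild-type libraries had 27.0, 26.6 and 36.8 CPM on N6, 38.5, 45.2 and 40.8 CPM at 2 d, 68.5, 68.1 and 61.2 CPM at 5 d and 99.7, 94.4 and 97.2 CPM at 7 d, with no overlap from one culture to the next. It was called at 5 d (2.19-fold, log2 fold change 1.13 ± 0.33 (SE), adjusted p = 0.00874) and at 7 d (3.22-fold, log2 fold change 1.69 ± 0.34 (SE), adjusted p = 0.000357). The line had 33.2, 31.6 and 26.7 CPM on N6 and 37.4, 28.8 and 36.2 CPM at 2 d, and was called against wild-type in neither culture. At 5 d it had 29.7, 11.6 and 11.7 CPM and at 7 d 9.28, 23.1 and 8.00 CPM, all 3 of the last below the N6 range, and the fall was called at 7 d (log2 fold change -1.18 ± 0.34 (SE), adjusted p = 0.00779). With either CIM 7 d replicate 1 or replicate 3 of the line left out, the log2 fold change was -0.97 or -0.91 and stayed under the minimum. The line was lower than wild-type by 3.74 times at 5 d (log2 fold change -1.90 ± 0.34 (SE), adjusted p = 0.000131) and by 7.21 times at 7 d (log2 fold change -2.85 ± 0.35 (SE), adjusted p = 1.11e-06). These log2 fold changes were -2.50 without CIM 5 d replicate 1 of the line and -3.49 without its CIM 7 d replicate 2, and without the latter the fall from N6 was -1.82.

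OsPLT10 was the only member called lower on CIM in wild-type. Its libraries had 89.7, 75.4 and 81.4 CPM on N6, 45.7, 33.8 and 31.9 CPM at 2 d, 19.9, 21.5 and 23.1 CPM at 5 d and 20.9, 23.6 and 26.2 CPM at 7 d. The level fell by 2.21 times at 2 d (log2 fold change -1.15 ± 0.16 (SE), adjusted p = 8.32e-05), by 3.82 times at 5 d (log2 fold change -1.94 ± 0.16 (SE), adjusted p = 2.62e-08) and by 3.49 times at 7 d (log2 fold change -1.80 ± 0.16 (SE), adjusted p = 4.38e-08), and these calls held under all 37 alternatives. In the line it had 66.1, 103 and 87.9 CPM on N6, 72.4, 65.6 and 63.7 CPM at 2 d, 54.2, 72.2 and 67.8 CPM at 5 d and 78.4, 60.5 and 67.9 CPM at 7 d, and the test called none of these days against N6. On CIM every library of the line was above every wild-type library of the same day. At 2 d the ratio of 1.81 did not reach the minimum fold (log2 fold change 0.86 ± 0.16 (SE), adjusted p = 0.00154), whereas at 5 d the line was 3.01-fold higher (log2 fold change 1.59 ± 0.16 (SE), adjusted p = 2.64e-07) and at 7 d 2.93-fold higher (log2 fold change 1.55 ± 0.16 (SE), adjusted p = 1.37e-07). Scaled by library totals or in FPKM, the difference at 7 d was just under the minimum (log2 fold change 0.95 to 0.96, adjusted p at most 7.77e-06).

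**Figure D3:**
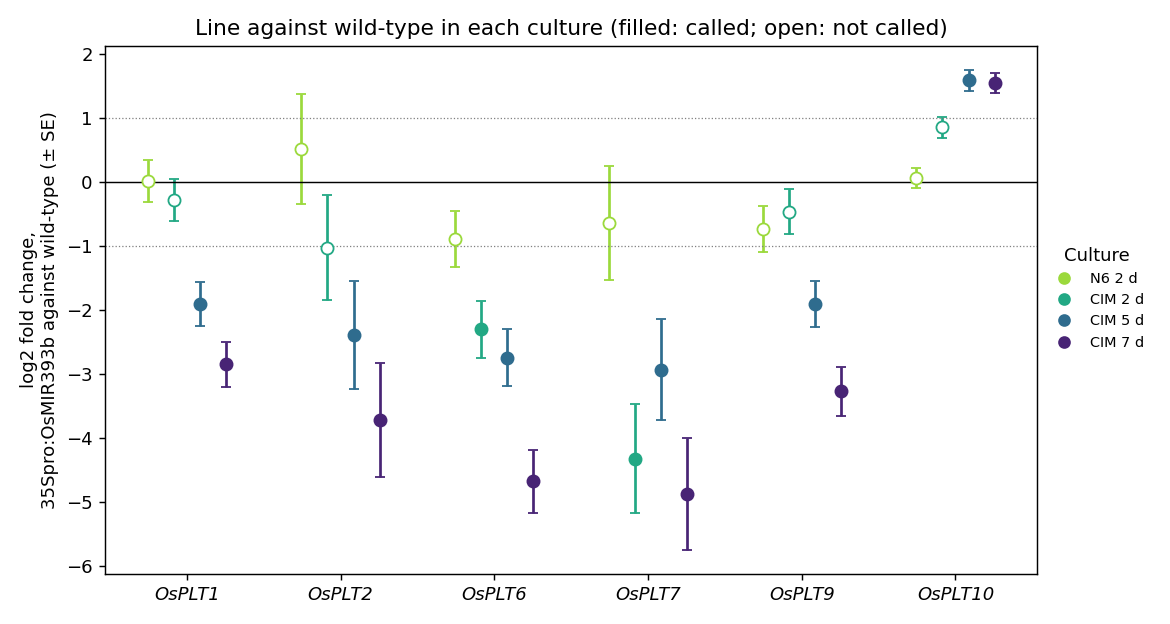
Log2 fold change of 35Spro:OsMIR393b against wild-type (vertical axis, with SE) in each culture for the 6 OsPLT genes (horizontal axis) that had counts in all libraries, filled where called and open where not, with dotted lines at the minimum of 1 in size. No gene is called on N6, and at 7 d OsPLT7 lies at -4.87 and OsPLT10 at 1.55.

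OsPLT3, OsPLT4, OsPLT5 and OsPLT8 were at or near 0 without auxin, and folds against N6 are therefore lower bounds or are left out. OsPLT3, annotated as ANT-like, was at 0 in all 6 N6 libraries. In wild-type it had 0, 1.05 and 8.88 CPM at 2 d, 47.0, 23.7 and 22.4 CPM at 5 d and 77.4, 93.5 and 59.2 CPM at 7 d, at least 170.3-fold and 422-fold above the N6 floor at 5 and 7 d (adjusted p = 0.00179 and 0.000770). Its call at 2 d (adjusted p = 0.0419) was lost under 17 of 37 alternatives (adjusted p = 0.246 without CIM 2 d replicate 3), and 1 of the 3 libraries was at 0. OsPLT5 rose beside it, from 0 or 4 counts on N6 to 0.173, 5.16 and 13.2 CPM at 2 d (adjusted p = 0.0121, but 0.120 with limma on log2(FPKM + 1) and 0.0572 on log2(FPKM + 0.1) without a filter), 60.4, 41.6 and 37.4 CPM at 5 d (adjusted p = 0.000327) and 54.9, 73.3 and 43.0 CPM at 7 d (adjusted p = 0.000236). In both genes CIM 2 d replicate 1 was lowest and replicate 3 highest.

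In the line OsPLT3 and OsPLT5 did appear on CIM, at lower levels. OsPLT3 had 0.736, 0 and 1.56 CPM at 2 d, 16.4, 1.60 and 6.40 CPM at 5 d and 0.148, 22.8 and 2.45 CPM at 7 d, and OsPLT5 had 1.67, 0 and 3.67, then 23.5, 2.21 and 6.01 and then 0.332, 13.4 and 6.92 CPM. Both were called against N6 at 5 d (adjusted p = 0.0153 and 0.00393) and at 7 d (adjusted p = 0.00728 and 0.00270). Both 7 d calls were lost with limma on log2(FPKM + 1) (adjusted p = 0.0705 and 0.0726). CIM 7 d replicate 2 was highest in both genes, and without it OsPLT3 was at least 6.84-fold above the N6 floor in place of 44.7-fold, and OsPLT5 at least 19.1-fold in place of 36.3-fold. At 5 d the bounds without CIM 5 d replicate 1 were 21.1 in place of 42.9 and 21.7 in place of 55.7. At 7 d every wild-type library exceeded every library of the line for both genes. OsPLT5 passed the test there (log2 fold change -3.05 ± 1.26 (SE), adjusted p = 0.0443, lost under 14 of 37 alternatives, with adjusted p = 0.109 without line CIM 7 d replicate 1 and a log2 fold change of -3.98 without replicate 2) and OsPLT3 did not (log2 fold change -3.18 ± 1.47 (SE), adjusted p = 0.0739). Without CIM 7 d replicate 2 of the line OsPLT3 was called as well (log2 fold change -5.88, adjusted p = 0.0108).

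OsPLT4 and OsPLT8 were the scarcest members. OsPLT4, similar to BABY BOOM, had 0, 8 and 46 counts at 2 d, 158, 81 and 134 counts at 5 d and 786, 979 and 388 counts at 7 d in wild-type, and was called at 5 d (adjusted p = 0.0381, lost under 6 of 37 alternatives) and at 7 d (adjusted p = 0.00450). The libraries behind the loss at 5 d were wild-type N6 replicates 1 and 2 and CIM 5 d replicates 1 and 3 (adjusted p from 0.0602 to 0.115). In the line it had 205, 11 and 26 counts at 5 d and 0, 468 and 23 at 7 d, and the call at 7 d against N6 (adjusted p = 0.0112) was lost without replicate 2 (adjusted p = 0.208). OsPLT8, similar to PLETHORA1, had 2, 0 and 0 counts at 2 d in wild-type and first passed the floor at 5 d, with 138, 184 and 219 counts and a level at least 12.9-fold above that of N6 (adjusted p = 0.000580). At 7 d it had 75, 47 and 208 counts (adjusted p = 0.000887). The line had 52, 33 and 4 counts at 5 d and none in any library at 2 or 7 d, a level at least 6.47-fold lower than in wild-type at 7 d (adjusted p = 0.000773), or at least 3.59-fold lower without wild-type replicate 3.

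Counted over the family, 5 members were higher and 1 lower in wild-type at 2 d on CIM against N6, where 4.30% of all 29710 genes were called higher and 4.01% lower. At 5 d 9 members were higher and 1 was lower, against 12.6% and 14.6% of all genes, and at 7 d again 9 and 1, against 14.2% and 14.7%. From 2 d to 5 d 4 members were higher, OsPLT2, OsPLT6, OsPLT8 and OsPLT9, against 5.62% of all genes higher and 9.41% lower, and without CIM 2 d replicate 1 only 2 of them were called. Between 5 d and 7 d the fit of 24 libraries called no member, and 0.525% of all genes higher and 0.276% lower. No member had an unadjusted p under 0.05 and DESeq2 called 0. Libraries of 7 d lay above those of 5 d without overlap for OsPLT4 (5.49-fold), OsPLT3 (2.47-fold) and OsPLT1 (1.47-fold). The share of all genes that separate in this way is not given here, so no change is read from it. A fit of the 5 d and 7 d groups alone called OsPLT4 (adjusted p = 0.00834) and OsPLT3 (adjusted p = 0.0326), and limma on log2(FPKM + 1) called OsPLT4 (adjusted p = 0.0155). The shares of all genes called in those 2 settings are not given here. The members' median log2 fold change from N6 was 2.47 at 2 d, 5.04 at 5 d and 5.90 at 7 d, and with levels at or under the floor set to it 1.38, 3.50 and 4.45. The medians of all genes were 0.0043, 0.0167 and 0.0174.

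In 35Spro:OsMIR393b no member was called at 2 d against N6, where 1.22% of all genes were called higher and 0.370% lower. At an unadjusted p under 0.05 with no minimum fold there were 5 members, of which OsPLT8 and OsPLT10 were lower, and DESeq2 called 3. Shares of all genes at those 2 settings are not given here, so these counts cannot be set against a background. At 5 d 6 members were higher (OsPLT2, OsPLT3, OsPLT5, OsPLT6, OsPLT7 and OsPLT9) and none lower, against 6.35% and 4.21% of all genes. At 7 d OsPLT3, OsPLT4 and OsPLT5 were higher and OsPLT1 lower, against 10% and 12.5%. Without CIM 5 d replicate 1 the 5 d calls were 3 higher (OsPLT3, OsPLT5 and OsPLT7) and OsPLT1 lower, and without CIM 7 d replicate 2 those at 7 d were OsPLT3 and OsPLT5 higher and OsPLT1 lower. Without CIM 7 d replicate 1 OsPLT2 and OsPLT7 were called higher at 7 d as well, and OsPLT1 was not called. Of the 37 alternatives 23 ended the 5 d call of OsPLT2, 9 that of OsPLT6, 4 that of OsPLT9 and 1 that of OsPLT7, and at 7 d 6 ended that of OsPLT4 and 3 that of OsPLT1. From 2 d to 5 d only OsPLT8 was higher, with at least 2.38-fold the level at the 2 d floor, beside 5.59% of all genes higher and 4.24% lower. OsPLT6 and OsPLT7 were higher as well without CIM 5 d replicate 3, and OsPLT7 without CIM 7 d replicate 2, whereas without CIM 5 d replicate 1 OsPLT1 was called lower beside it. From 5 d to 7 d OsPLT6, OsPLT8 and OsPLT9 were lower, beside 6.04% of all genes lower and 1.04% higher, and the count of 3 was 0 without CIM 5 d replicate 1, 1 without CIM 7 d replicate 1 and 5 without CIM 7 d replicate 2. Without CIM 5 d replicate 1 or replicate 3, OsPLT9 was called higher at 2 d against N6.

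Tested as a difference between the genotypes in the change from N6, no member passed at 2 d, beside 0.252% of all genes with the larger rise in wild-type and 0.283% with the opposite sign. At an unadjusted p under 0.05 with no minimum fold there were 4 members, without a share of all genes at that threshold, and DESeq2 called 0. At 5 d the rise was larger in wild-type for OsPLT1 (log2 difference 1.92 ± 0.47 (SE), adjusted p = 0.00435), OsPLT6 (1.86 ± 0.61 (SE), adjusted p = 0.0254) and OsPLT8, and OsPLT10 differed the other way (-1.53 ± 0.23 (SE), adjusted p = 5.95e-05), against 6.50% and 11.8% of all genes. At 7 d OsPLT1 (2.87 ± 0.48 (SE), adjusted p = 7.52e-05), OsPLT2 (4.25 ± 1.22 (SE), adjusted p = 0.00761), OsPLT6 (3.79 ± 0.63 (SE), adjusted p = 7.28e-05), OsPLT7 (4.24 ± 1.20 (SE), adjusted p = 0.00706), OsPLT8 and OsPLT9 (2.54 ± 0.51 (SE), adjusted p = 0.000456) differed in that direction and OsPLT10 in the other (-1.49 ± 0.23 (SE), adjusted p = 2.93e-05), against 16.1% and 15.5% of all genes. Scaled by library totals, OsPLT10 was at -0.96 and no longer called. OsPLT3, OsPLT4 and OsPLT5 did not pass at any day, and their N6 libraries at or near 0 leave no bounded fold for the difference. The 4 members at 5 d were 7 without line CIM 5 d replicate 1, and 2 without line CIM 5 d replicate 2, wild-type CIM 5 d replicate 3 or wild-type N6 replicate 2. Without line CIM 5 d replicate 1 the 5 d differences were 2.52 for OsPLT1 and 2.65 for OsPLT6, and without line CIM 7 d replicate 2 those at 7 d were 3.51 for OsPLT1, 5.35 for OsPLT2 and 5.86 for OsPLT7. OsPLT8 rests on 8 counts in N6 replicate 3 of the line, without which its adjusted p was 1.00 at both days.

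The direct comparison of the line with wild-type gave no call on N6, where 1.79% of all genes were called higher and 1.18% lower. On that medium 1 member had an unadjusted p under 0.05, without a share of all genes at that threshold, and DESeq2 called 0. At 2 d on CIM 2 members were lower and none higher, against 2.73% and 3.92% of all genes. At 5 d 5 were lower (OsPLT1, OsPLT2, OsPLT6, OsPLT7 and OsPLT9) and OsPLT10 higher, against 10.9% and 15.8%, and at 7 d 7 were lower and OsPLT10 higher, against 20.3% and 18.7%. These comparisons share their libraries with those against N6 and are no separate evidence.

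The counts of all genes depended on the scaling more than those of the members. With library totals in place of TMM factors the genes called higher and lower went from 3732 and 4331 to 4896 and 3556 in wild-type at 5 d against N6 and from 4232 and 4356 to 5824 and 3425 at 7 d. In the line at 7 d against N6 they went from 2972 and 3705 to 2104 and 4993. The line against wild-type went from 4703 and 3238 to 3193 and 5773 on CIM at 5 d, and from 5552 and 6035 to 3395 and 9773 at 7 d. The difference between genotypes went from 1932 and 3500 to 3730 and 2488 at 5 d and from 4793 and 4596 to 8045 and 2724 at 7 d, and the step from 2 d to 5 d in wild-type from 1670 and 2795 to 2671 and 2122. Among the members library totals ended 3 calls, those of OsPLT10 given above and OsPLT2 in the line at 5 d, and added OsPLT3 as lower in the line at 7 d (log2 fold change -3.69, adjusted p = 0.0491).

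Within several groups the genes ordered the libraries alike. In wild-type at 2 d replicate 3 was highest in 7 of the 10 genes and replicate 1 lowest in 7, and OsPLT5 ran from 11 through 252 to 895 counts. In the line at 5 d replicate 1 was highest in 9 genes and lowest in OsPLT10, and at 7 d replicate 2 was highest in 7 of the 9 genes with counts and lowest in OsPLT10. The share of all genes that order these libraries alike is not given here, so the order may not be particular to the members. Total counts of these last 2 libraries were 66692530 and 68474115, within the range of the series. Their mean Pearson r with the other libraries of their group, over log2 CPM of all tested genes, was 0.937 and 0.942, the lowest 2 values of the 24 libraries. Their TMM factors stood apart as well, at 1.015 against 0.856 and 0.843 at 5 d and at 0.870 against 0.769 and 0.7997 at 7 d. The oleosin sum was 79.4 CPM in line replicate 1 at 5 d, against 89.0 and 11.7 CPM in its group, and 12.03 CPM in replicate 2 at 7 d, against 3.82 and 7.10 CPM. The part of such marker differences in the OsPLT levels was not tested.

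Across groups, and in deviations from group means taken over all groups, most members moved together, though not in every group. Over the 24 libraries all 36 pairs among OsPLT1 to OsPLT9 had a positive Pearson r of log2 CPM (from 0.39 to 0.98), and the 9 pairs with OsPLT10 ran from -0.92 to -0.73. After each group mean was taken off, the 28 pairs without OsPLT8 and OsPLT10 had r from 0.46 to 0.95 with a median of 0.62, and OsPLT3 and OsPLT5 gave the highest value. Of the 9 pairs with OsPLT10 8 were negative, down to -0.75 with OsPLT2. OsPLT8, which is at or under the floor in most libraries, had r between -0.17 and 0.47 with the others. Libraries with large deviations weigh most in these values, such as line CIM 7 d replicate 2 (3.40 in log2 for OsPLT3). In wild-type CIM 7 d replicate 2 the members did not move alike. OsPLT3 (0.31) and OsPLT5 (0.40) lay above their group means there, and OsPLT6 (-0.22) and OsPLT7 (-0.15) below. All points share their libraries and scaling factors, and the values are given as a description.

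**Figure D4:**
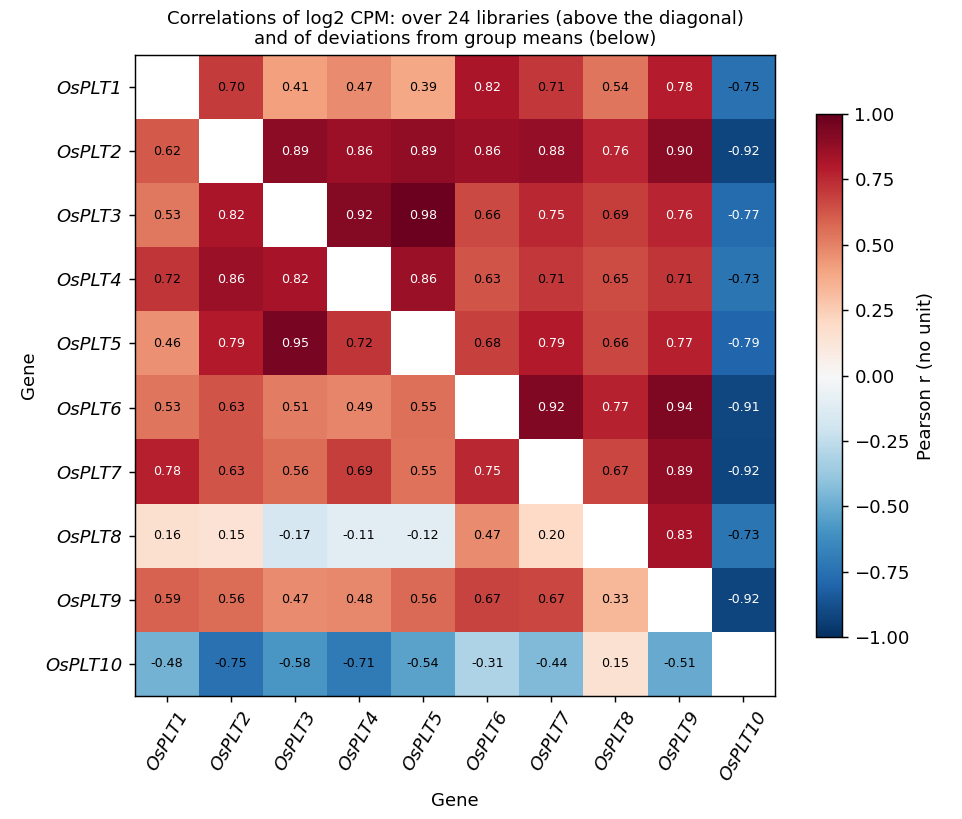
Pearson r of log2 CPM between pairs of OsPLT genes (colour, no unit), over the 24 libraries above the diagonal and of deviations from the 8 group means below it. OsPLT3 and OsPLT5 have the highest r below the diagonal (0.95), and the OsPLT10 row and column are negative except with OsPLT8 below the diagonal (0.15).

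Among 6324 named genes with a group mean of at least 5 CPM, those whose 8 group means followed each member most closely were listed by Pearson r, with 8 points and no test. OsPLT2 was closest to OsERF061, FZP and OsSHR1 (r from 0.989 to 0.993), and OsSHR1 belongs to the SHORT-ROOT transcription factors and FZP is an ERF factor of the rice inflorescence. OsPLT5 was closest to IAA6, DEFL12 and OsMLO11 (r from 0.981 to 0.990), of which IAA6 is an Aux/IAA repressor of auxin signaling, and OsPLT3 to ILI3, OsMLO11 and OsABCA5 (r from 0.984 to 0.997). For OsPLT6 the list held OsDDM1b, OsHAG704 and OsFbox363 (r from 0.990 to 0.997), of which OsDDM1b is a chromatin remodeler, and for OsPLT7 OsCBL4, OsTDL1B and CYP76M2 (r from 0.985 to 0.991), of which OsTDL1B encodes a small secreted signal. OsPLT8 was nearest to OsHAP3E, SLAC and OsLTP1.8 (r from 0.958 to 0.973), and its first gene, OsHAP3E, is the embryo regulator that the study calls OsLEC1. OsPLT1 had OsEXO70A2, OsREM5.2 and OsFAD2 (r from 0.991 to 0.994), OsPLT4 OsCUL1-2, BIP104 and OsHAC704 (r from 0.977 to 0.989) and OsPLT9 OsSTA4, OsPK7 and OsXTH3 (r from 0.989 to 0.992). OsPLT10 was nearest to OsRMR3, OsPIL12 and OsGATA8 (r from 0.994 to 0.995), of which OsGATA8 is a zinc finger factor. With r taken over the 24 libraries, 13 of these 30 places held the same gene. OsPLT7 kept all 3, OsPLT3 kept ILI3 and OsABCA5, OsPLT5 IAA6 and DEFL12, and OsPLT8 OsHAP3E and OsLTP1.8. OsPLT1 kept OsREM5.2, OsPLT2 OsSHR1, OsPLT6 OsHAG704 and OsPLT9 OsPK7, while OsERF061, FZP and OsDDM1b dropped out and OsPLT4 and OsPLT10 kept none.

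The rest of the AP2/ERF superfamily held calls in both directions. Of 53 other genes so annotated 47 were tested. In wild-type against N6, 6 were higher and 2 lower at 2 d, beside 4.30% and 4.01% of all genes. At 5 d 9 were higher and 10 lower, beside 12.6% and 14.6%. At 7 d 14 were higher and 7 lower, beside 14.2% and 14.7%, and the median log2 fold change of the 47 was 0.11. In the line against wild-type at 7 d 7 higher and 18 lower were called, beside 18.7% and 20.3% of all genes. Among the 53, 2 are annotated as AINTEGUMENTA-like or ANT-like, the nearest relatives of the OsPLT genes by that wording. AP2/EREBP086 (Os03g0313100) had 2.46 to 3.79 CPM on N6 and 8.62 to 9.55 CPM at 7 d in wild-type (log2 fold change 1.51, adjusted p = 0.00233), and 0.722 to 0.975 CPM in the line at 7 d (log2 fold change -3.46, adjusted p = 6.44e-07). AP2/EREBP109 (Os08g0442400) had at most 2.57 CPM in any library and was not called in wild-type against N6. In the line it was called lower than on N6 at 5 d (log2 fold change -4.25, adjusted p = 0.00404) and at 7 d (log2 fold change -2.90, adjusted p = 0.0137), and lower than in wild-type at 5 d (log2 fold change -2.31, adjusted p = 0.0481).

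Other genes to which the study gives identifiers changed as follows. Most were named on these libraries, and their direction is therefore no independent evidence. The study brings in OsTIR1, OsAFB2, OsCRL1 and OsIAA11 through mutants instead. Of the embryo regulators OsLEC1, OsLFL1 and OsVP1, all 3 were higher in wild-type at 5 d and at 7 d against N6 and none at 2 d. In the line OsLEC1 and OsLFL1 were higher at 5 d against N6, all 3 were lower at 7 d than at 5 d, OsVP1 was also lower at 7 d than on N6, and all 3 were lower than in wild-type at 5 d and at 7 d. OsWOX2 and OsWOX9C, homeobox genes, were both higher at 5 and 7 d in wild-type against N6, and OsWOX2 already at 2 d. In the line both were higher at 5 d against N6 and not called at 7 d, and on both days the pair was lower than in wild-type. The remaining 19 genes with identifiers are called auxin genes here. They include OsCRL1 and OsIAA11, which the study treats as genes of root development. Of the 19, 10 were higher in wild-type at 2 d, 15 at 5 d and 16 at 7 d, and none was lower on any of these days. Against wild-type 17 of the 19 were lower in the line at 5 d and at 7 d. The list includes OsTIR1 and OsAFB2, whose lowering the transgene sets by design, and OsTIR1 was among those called and also the 1 gene of the list called lower on N6. Of the other 17 genes 16 were called lower at 5 d and 16 at 7 d. The members' own counts for the same wild-type days were 5, 9 and 9 of 10.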

How the data were processed

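RNA of 24 libraries, 3 in each of 8 groups, was sequenced by the authors from polyadenylated RNA on an Illumina HiSeq instrument. Per the submitters' processing notes, Trimmomatic 0.36, HISAT2 2.1.0 with IRGSP-1.0 as the genome, and StringTie 1.3.4d were used, whereas the study's methods give another version of HISAT and do not name Trimmomatic. The deposited table holds estimated counts as whole numbers and FPKM, which is 0.0001 where the count is 0 and was then read as 0. The most frequent low values among the deposited estimated counts are 4, 8 and 12, and 12 counts were therefore taken as 3 fragments and as the floor per library. The methods name UMI-tools as the means by which noise from amplification was taken out, and strand-specific counting is not stated. Counting error is all that the floor covers.

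Genes passing filterByExpr (29710 of 38866) entered a single edgeR 4.0.16 quasi-likelihood fit in R 4.3.3 over the 8 groups, with TMM factors and Benjamini-Hochberg adjustment over all genes tested. CPM are estimated counts divided by the TMM-scaled library total and brought to the usual CPM scale. SE is the log2 fold change divided by the square root of F, worked back from the test. Correlations use log2 CPM with a prior count of 2. After the main fit, the same procedure was run on simulated counts with known changes, built from the means and dispersions of that fit. The outcome is not given here. Alternatives were other scaling factors, filters and fold minimums, counts divided by 4, a replicate block, limma 3.58.1 on log2(FPKM + 0.1) or log2(FPKM + 1), DESeq2 1.42.0, fits of the compared groups alone and leaving out each library. A fit without 2 libraries of the line was added after seeing the data.

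Members are the genes named OsPLT1 to OsPLT10 in the table or the study, and the 3 named genes closest to each were taken by Pearson r over the 8 group means, among genes with a group mean of at least 5 CPM. Members and lists were chosen with earlier results of these data known. List patterns were matched at word starts, since they otherwise took in SANT-like and HAP2 genes.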

Additional observations from a re-analysis of the deposited data

Results flagged for a closer look

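The change from N6 to CIM differed between the genotypes by its own test in 4 OsPLT genes at 5 d and in 7 at 7 d, all in edgeR's fit of 24 libraries. Of all genes, 6.50% had the larger rise in wild-type and 11.8% the opposite sign at 5 d. At 7 d these shares were 16.1% and 15.5%. At 5 d the log2 difference, wild-type minus 35Spro:OsMIR393b, was 1.92 for OsPLT1, 1.86 for OsPLT6, 6.89 for OsPLT8 and -1.53 for OsPLT10. At 7 d it was 2.87 for OsPLT1, 4.25 for OsPLT2, 3.79 for OsPLT6, 4.24 for OsPLT7, 14.07 for OsPLT8, 2.54 for OsPLT9 and -1.49 for OsPLT10. The values of OsPLT8 are fitted against groups at or near 0, depend on the prior count and give no bound. Both of its calls were lost without N6 replicate 3 of the line, which had 8 counts. OsPLT10 at 7 d fell under the minimum fold with library totals and with limma on FPKM.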

How the results depend on the processing

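Of 71 member calls over 13 comparisons, 46 held under all 37 alternatives, among them 10 of 10 in wild-type at 7 d, 9 of 10 at 5 d and 0 of 4 in the line at 7 d. The 37 overstate the number of separate checks. Unadjusted p and no minimum fold only loosen the thresholds of the same fit and cannot end a call. For a comparison of 2 groups, most fits with 1 library left out drop a library outside those groups. The fit chosen after seeing the data is among the 37 as well. Leaving out 1 library gave 4 to 6 members in wild-type at 2 d against N6, 9 to 10 at 5 d and 10 at 7 d. In the line these counts were 0 to 1, 4 to 7 and 3 to 5. For the difference between genotypes they were 0 at 2 d, 2 to 7 at 5 d and 6 to 7 at 7 d, and for the line against wild-type 0 on N6, 2 to 3 at 2 d, 5 to 6 at 5 d and 7 to 10 at 7 d on CIM. From 2 d to 5 d they were 2 to 5 in wild-type and 1 to 3 in the line, and from 5 d to 7 d 0 and 0 to 5. With unadjusted p and the minimum fold kept, 4 members passed in the line at 2 d against N6, 3 for the difference between genotypes at 2 d, 1 for the line against wild-type on N6 and 4 from 2 d to 5 d in the line, and DESeq2 called 3 in the line at 2 d. Shares of all genes under these and the following alternatives are not given here. In the line against N6, limma on log2(FPKM + 1) called 3 at 5 d and 1 at 7 d, and fits of only the groups compared called 2 at 5 d and 2 at 7 d. For the difference between genotypes, log2(FPKM + 1) gave 1 at 2 d and 8 at 5 d, log2(FPKM + 0.1) gave 7 at 5 d with or without a filter, and the fit of only the groups compared gave 1 at 2 d. From 5 d to 7 d, log2(FPKM + 1) called 1 in wild-type and 1 in the line, and only the groups compared called 2 and 0. From 2 d to 5 d in the line, 2 were called with no minimum fold, with counts divided by 4, and with log2(FPKM + 0.1) with or without a filter, and 0 with only the groups compared. Without CIM 5 d replicate 1 and CIM 7 d replicate 2 of the line, a choice made after seeing the data, 1 member was called in the line at 2 d, 1 and 7 for the difference between genotypes at 2 and 5 d, 2 in the line from 2 d to 5 d and 0 from 5 d to 7 d. For OsPLT4 from 5 d to 7 d in the line, values with 1 library left out ran from 3.10 to a reversed -2.53 without CIM 7 d replicate 2, and reached -0.59 without both libraries. For OsPLT3 in the line against wild-type at 2 d they ran from -3.15 to a reversed 0.66 without wild-type CIM 2 d replicate 3. None of these reversed values was called, and the cause was not tested. Library totals moved the median of all tested genes, in log2, by -0.59 for the line against wild-type at 7 d, by 0.52 for the difference between genotypes at 7 d and by -0.38 to 0.33 in the other comparisons. Over all tested genes, libraries with the same replicate number did not deviate together on average (mean r -0.00801, against 0.00401 for other pairs). This mean cannot exclude that libraries with the same number were cultured together. A replicate block moved no count of members by over 1.5 times, although for the difference between genotypes at 2 d the genes called lower went from 84 to 54. The block ended 5 calls of members, for example OsPLT5 in the line against wild-type at 7 d (log2 fold change -3.09, adjusted p = 0.0614). With a floor of 12 counts, levels under 0.140 to 0.246 CPM cannot be told from 0.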
